A study of Homo sapiens with 8 samples.

Results

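The ZKSCAN genes are human genes whose protein products carry a SCAN domain, in most cases a KRAB domain, and an array of C2H2 zinc fingers. The 8 genes described here are ZKSCAN1, ZKSCAN2, ZKSCAN3, ZKSCAN4, ZKSCAN5, ZKSCAN7, ZKSCAN8 and the pseudogene ZKSCAN8P1, taken by Ensembl identifier from the 78932 gene identifiers of the count tables. ZKSCAN8 and ZKSCAN8P1 were chosen by their measured sense counts, a lower ZKSCAN8 beside a higher ZKSCAN8P1 after dTAGV1, so their difference between the groups is a description and carries no test. The other 6 were taken by name, to ask whether further members of the family moved.

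RNA came from dTAG-NUDT21 HCT116 cells, an established human colorectal cancer line in which NUDT21 carries a tag that lets the small molecule dTAGV1 send the protein for degradation. A group of 4 libraries came from cells given DMSO (the solvent) with JTE-607, and the other 4 libraries from cells given dTAGV1 with JTE-607. Both groups thus carried the tagged NUDT21 and received JTE-607, a compound whose active form inhibits CPSF3, the nuclease that cuts pre-mRNA at the poly(A) site. Doses, times, the number of clones and whether replicates were separate cultures are not given in the labels, so the p-values measure only the spread between these libraries, which may be technical.

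NUDT21 is the small subunit of cleavage factor Im, which binds UGUA elements upstream of poly(A) sites and takes part in the choice between such sites. SCAN domains pair with one another, and zinc fingers bind DNA. Many KRAB domains recruit the co-repressor TRIM28, which brings histone methylation and HP1 proteins to the bound sites. Whether those of the ZKSCAN proteins do so was not examined here. Many SCAN and KRAB genes lie in clusters made by duplication, and one such cluster surrounds ZKSCAN8 on chromosome 6. ZKSCAN3 is known as a repressor of autophagy and lysosome genes, and ZKSCAN1 also as the host of a circular RNA, which libraries primed on poly(A) tails do not capture.

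Sequencing gave 8649238 to 9977205 reads a library, of which 3447842 to 4291256 were counted in sense to a gene. No gene was assigned to 56.7% to 62.8% of reads, and unmapped reads made up 27.7% to 28.9% in the DMSO libraries and 30.3%, 29.9%, 24.9% and 20.4% in dTAGV1 replicates 1 to 4. NUDT21 had 104, 139, 131 and 129 counts with DMSO and 34, 29, 15 and 43 with dTAGV1, a log2 fold change of -1.95 ± 0.18 (SE). Of 7 epithelial and colon markers, EPCAM, CDH1, KRT8, KRT18 and KRT19 were abundant, while CEACAM5 and CDH17 had 0 to 2 counts in each library. The 10 markers of other cell types summed to between 20.02 and 25.14 CPM (counts scaled to 1000000 counted reads, with edgeR's TMM factors) in the DMSO libraries and between 15.1 and 19.6 CPM in the dTAGV1 libraries, and COL1A1, of fibroblasts, made up most of that with means of 17.3 and 13.8 CPM. The other fibroblast markers, COL3A1 and DCN, were at 0.

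ZKSCAN8 (ENSG00000198315) is a protein-coding zinc finger gene on the plus strand at chr6:28141910-28159472 (GRCh38). ZKSCAN8P1 (ENSG00000226314) is annotated as a transcribed unprocessed pseudogene, a gene copy made by duplication rather than from mRNA, at chr6:28161769-28169594 on the same strand. It starts 2297 bases beyond the annotated end of ZKSCAN8. The libraries read only poly(A) ends, so the sequences at the annotated transcript ends are shown for both genes, 30 bases 5′ to 3′ with the poly(A) signal in capitals.
ZKSCAN8, chr6:28159427-28159456, plus strand: catagtaggcgtttAATAAAtgcttgttga
ZKSCAN8P1, chr6:28169540-28169569, plus strand: gagctatttctgaaAATAAAtttattttgt
Both ends held the same hexamer, 26 and 29 bases before the end of the transcript. Within the last 50 bases, 60.3% of 12090 tested genes held this hexamer. TGTA, the DNA form of the element bound by cleavage factor Im, occurred 1 time in the last 100 bases of ZKSCAN8 and 0 times in those of ZKSCAN8P1, against 54.0% of the tested genes with at least 1.

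Libraries with DMSO held 66, 55, 54 and 75 ZKSCAN8 counts, and those with dTAGV1 held 25, 22, 19 and 29. Every dTAGV1 library was thus below every DMSO library. Group means were 16.1 ± 2.62 and 6.55 ± 0.658 CPM (SD, n = 4 libraries each), and the fitted log2 fold change was -1.29 ± 0.19 (SE). ZKSCAN8P1 had 13, 7, 11 and 9 counts with DMSO and 99, 101, 95 and 130 with dTAGV1. The groups lay far apart. The most counts were in dTAGV1 replicate 4, the largest library by sense counts, which in CPM (30.7) lay close to replicate 2 (30.5). Group means were 2.60 ± 0.815 and 29.3 ± 1.51 CPM (SD, n = 4 libraries each), with a fitted log2 fold change of 3.50 ± 0.20 (SE), or 11.3-fold. ZKSCAN8P1 passed the filter on low counts through its dTAGV1 libraries.

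The order of the neighbours was exchanged between the groups. Of the reads given to either gene, ZKSCAN8P1 took 16.5%, 11.3%, 16.9% and 10.7% in the DMSO libraries and 79.8%, 82.1%, 83.3% and 81.8% in the dTAGV1 libraries. Together the pair held 79, 62, 65 and 84 counts with DMSO and 124, 123, 114 and 159 with dTAGV1. The summed level was 18.7 ± 3.08 CPM in the DMSO group and 35.9 ± 1.86 CPM in the dTAGV1 group (SD, n = 4 libraries each), so the gain at the pseudogene was larger than the loss at ZKSCAN8. On the opposite strand, ZKSCAN8 had 1 count in DMSO replicate 1 and 0 in the other libraries, and ZKSCAN8P1 had 0 in all 8.

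**Figure D1:**
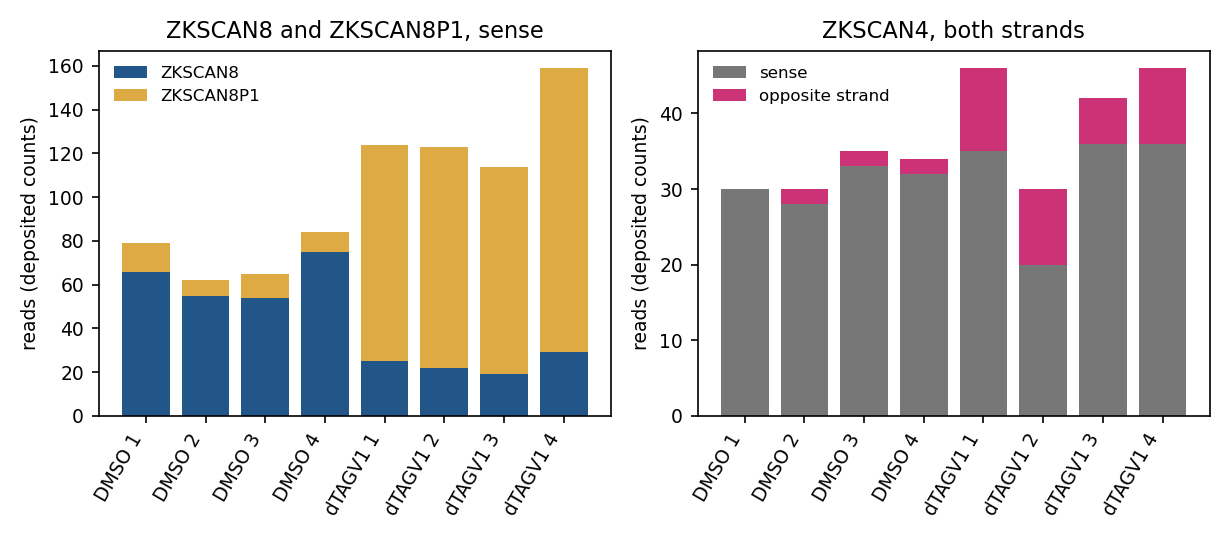
Left, sense counts of ZKSCAN8 and ZKSCAN8P1 in each of the 8 libraries, stacked, with the library on the horizontal axis and counts on the vertical axis. Right, sense and opposite-strand counts of ZKSCAN4, stacked in the same way. ZKSCAN8P1 forms 10.7% to 16.9% of the bar with DMSO and 79.8% to 83.3% with dTAGV1.

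All annotated transcripts of the pair were compared. The best alignment had 73.4% identity over 666 bases, between a ZKSCAN8P1 transcript of 1628 bases, not the one whose end is shown, and the ZKSCAN8 transcript shown. Over all pairs of transcripts the longest run shared exactly was 24 bases, or 18 within the last 300 bases of any ZKSCAN8P1 transcript. The length of the deposited reads is not given in the sources used here, and reads that fit more than 1 place were not counted to a gene. Counts per gene also do not tell which poly(A) site within a gene a read came from.

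Downstream of the pseudogene the plus strand held further genes with more counts after dTAGV1. ENSG00000280107, a region listed as still to be experimentally checked, starts 1251 bases beyond ZKSCAN8P1 and had 10, 6, 3 and 3 counts with DMSO and 18, 9, 13 and 13 with dTAGV1. Its log2 fold change was 1.36 and the groups overlapped. ZNF603P, a zinc finger pseudogene 6594 bases beyond ZKSCAN8P1, had 4, 3, 2 and 1 counts with DMSO and 11, 13, 15 and 19 with dTAGV1. All dTAGV1 libraries were higher there, with a log2 fold change of 2.58 ± 0.42 (SE). Both genes passed the filter on low counts through their dTAGV1 libraries, as ZKSCAN8P1 did, so no p is given for them.

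Within 500 kb of ZKSCAN8, leaving out the pair, 64 genes were listed and 17 had enough counts to be tested. Of these, 9 rose and 1 fell, which is 58.8% called. Over all 12618 genes tested, 57.9% were called, 29.4% higher and 28.5% lower, by edgeR's quasi-likelihood test at a Benjamini-Hochberg adjusted p under 0.05. The share called near ZKSCAN8 was thus close to that of all genes. Of the 9, 4 had a mean below 20 counts, ZNF603P and ENSG00000280107 among them, and when at least that mean was required, 10 genes were tested, 5 rose and 1 fell. Among the called genes nearby, ZSCAN31, a SCAN zinc finger gene that overlaps ZKSCAN3 on the other strand, had a log2 fold change of 1.97 ± 0.27 (SE). ZSCAN31, which is among those 5, also passed the filter on low counts through its dTAGV1 libraries, so no p is given for it. The histone gene H3C10 was the called gene with the lowest value, -0.59 ± 0.17 (SE, edgeR adjusted p = 0.00429). The median log2 fold change was 0.42 over the 17 genes and 0.40 over those 10, against 0.01 over all genes tested.

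**Figure D2:**
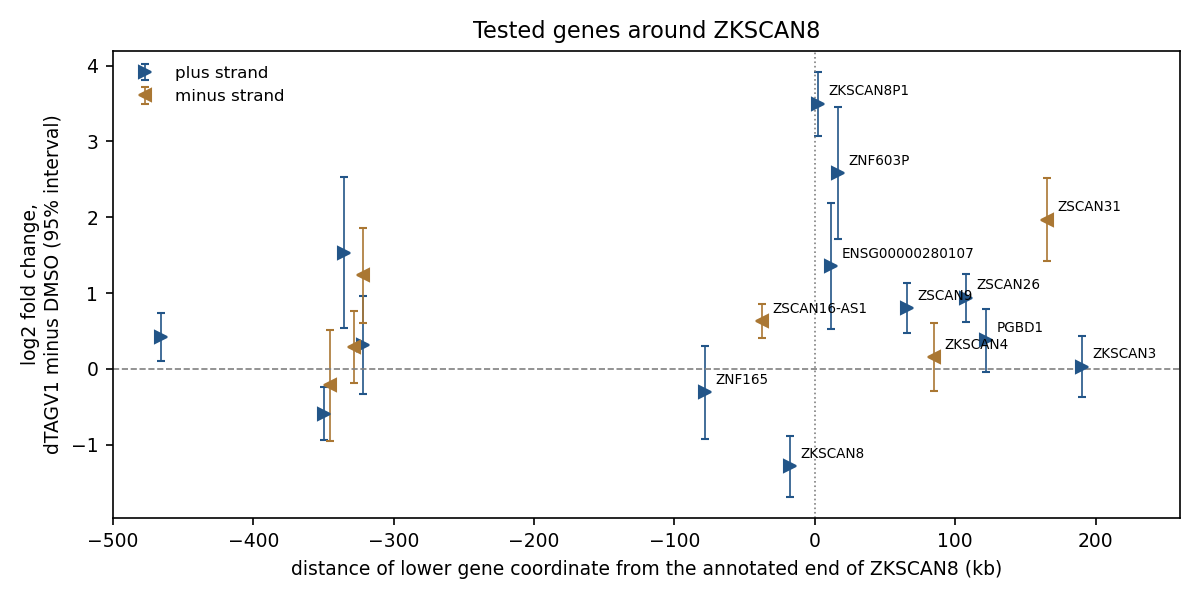
Log2 fold change (dTAGV1 minus DMSO, vertical axis) of tested genes around ZKSCAN8 against the distance of their lower coordinate from the annotated end of ZKSCAN8 (kb, horizontal axis), with 95% intervals and triangles that point along the strand. ZKSCAN8P1 stands highest at 3.50, ZNF603P follows at 2.58 and ZKSCAN8 is lowest at -1.29.

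A lower gene followed by a higher one on the same strand was found elsewhere too. In GENCODE 29, 1162 pairs of neighbouring genes on 1 strand had a gap of at most 5 kb and counts enough to test both. Both genes were called in 412 pairs. In 112 pairs, or 9.64%, the upstream gene was lower and the downstream gene higher, ZKSCAN8 with ZKSCAN8P1 among them. The opposite order was found in 71 pairs, both higher in 96 and both lower in 133. Of all tested genes, 28.5% were called lower and 29.4% higher, so some pairs of each kind arise without any link between neighbours. Whether 112 exceeds that number was not tested. The difference between ZKSCAN8P1 and ZKSCAN8 was 4.78 on the log2 scale, rank 6 of the 1162 pairs, a position that follows from how the pair was chosen. At the top of that ranking stood EGR1 with RPL7P19, at a difference of 7.20.

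By Pearson's correlation of log2 CPM over the 8 libraries, TTC7A (r = 0.990), CMTM4 (0.989) and PITPNA (0.989) were the genes most like ZKSCAN8 among 9321 ranked. For ZKSCAN8P1 they were PSAP (r = 0.998), PLAU (0.997) and PTPRJ (0.997). Such values were common, since 319 genes passed 0.95 for ZKSCAN8 and 791 did for ZKSCAN8P1. The points share the 2 treatment groups, and any gene that differs strongly between them scores high.

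Of the 6 members not chosen for their change, 5 had counts enough to be tested, 1 fell and none rose by edgeR's quasi-likelihood test (adjusted p under 0.05). That is 20% called, against 57.9% of all genes and 54.8% of the 7011 genes with a mean of 4 to 45 CPM, a range that takes in every one of these members but ZKSCAN1. At an unadjusted p under 0.05 the count was also 1 by edgeR and 1 by DESeq2. The DMSO and dTAGV1 libraries overlapped in CPM for each of the 5, while 50.9% of all tested genes had groups that did not overlap.

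ZKSCAN5 (ENSG00000196652, chr7:99504651-99534700, plus strand), a zinc finger gene of the chromosome 7 cluster, was the member that fell. Its counts were 146, 189, 165 and 147 with DMSO and 137, 115, 99 and 101 with dTAGV1. In CPM they were 39.9, 45.6, 44.0 and 36.4 with DMSO and 38.8, 34.7, 29.2 and 23.9 with dTAGV1, so dTAGV1 replicate 1 overlapped the DMSO range and replicate 4 was lowest. The log2 fold change was -0.40 ± 0.13 (SE), with a 95% interval of -0.67 to -0.12, or 1.32-fold lower (edgeR adjusted p = 0.0131). Without dTAGV1 replicate 4, the library with the smallest share of unmapped reads, it was -0.29 and no longer passed (edgeR adjusted p = 0.0559). The part of unmapped reads in this result was not tested.

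ZKSCAN1 (ENSG00000106261, chr7:100015572-100041689, plus strand) was the most abundant member. It had 396, 488, 429 and 599 counts with DMSO and 383, 356, 457 and 581 with dTAGV1, and the groups overlapped throughout. Group means were 122 ± 17.8 and 122 ± 16.2 CPM (SD, n = 4 libraries each). Its fitted change was 0.00 ± 0.10 on the log2 scale (SE, edgeR adjusted p = 1.00), and its 95% interval ran from -0.21 to 0.21. ZSCAN21, a SCAN gene that starts 8085 bases beyond ZKSCAN1 on the same strand, rose by 0.51 on the log2 scale (edgeR adjusted p = 0.0113).

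The transcript ends of these chromosome 7 genes, the called member and the most abundant one, are shown in the same way.
ZKSCAN5, chr7:99533788-99533817, plus strand: aaaggcgtttcccaAATAAAtcacactgtc
ZKSCAN1, chr7:100041651-100041680, plus strand: agtcatggtaaaacAATAAAttatcatctc
Both had the same hexamer and 0 TGTA in the last 100 bases. Ends, TGTA counts and UTR lengths are those of a single transcript per gene, the longest protein-coding one, or the longest for ZKSCAN8P1. The annotated genes ZKSCAN5 and ZKSCAN7 extend well beyond the ends used, and ZKSCAN3 and ZKSCAN8P1 extend beyond them by a few bases. Across the family, TGTA occurred 0 times in ZKSCAN1, ZKSCAN5 and ZKSCAN8P1, 1 time in ZKSCAN2 and ZKSCAN8, 2 times in ZKSCAN3, and 3 times in ZKSCAN4 and ZKSCAN7. At least 3 were found in 5.77% of the tested genes. The annotated 3′ UTR was 7492 bases long in ZKSCAN1, 5455 in ZKSCAN8, 3815 in ZKSCAN2, 2885 in ZKSCAN3, 1573 in ZKSCAN5, 783 in ZKSCAN7 and 493 in ZKSCAN4.

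The remaining tested members had few counts. ZKSCAN3 (ENSG00000189298, chr6:28349914-28369177, plus strand) had 38, 52, 53 and 63 counts with DMSO and 30, 44, 59 and 62 with dTAGV1. Its groups overlapped, with a log2 fold change of 0.03 and a 95% interval of -0.38 to 0.44 (edgeR adjusted p = 0.906). On the opposite strand ZKSCAN3 had 4 counts in dTAGV1 replicate 4 and 0 in every other library. ZKSCAN2 (ENSG00000155592, chr16:25236001-25257931, minus strand), which lies apart from the clusters, had 42, 40, 31 and 39 counts with DMSO and 41, 33, 34 and 56 with dTAGV1. Its log2 fold change was 0.21, with an interval of -0.18 to 0.60 (edgeR adjusted p = 0.356). The interval of ZKSCAN2 still includes values up to 1.52-fold higher.

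ZKSCAN4 (ENSG00000187626, chr6:28244623-28252224, minus strand), a close relative of ZKSCAN3, had 30, 28, 33 and 32 sense counts with DMSO and 35, 20, 36 and 36 with dTAGV1. The sense log2 fold change was 0.15, with a 95% interval of -0.30 to 0.60 (edgeR adjusted p = 0.568). On the opposite strand, however, it had 0, 2, 2 and 2 counts with DMSO and 11, 10, 6 and 10 with dTAGV1. All 4 dTAGV1 libraries were higher there, 37 counts in sum against 6. The low-count filter removed ZKSCAN4 from the opposite-strand table, in which 3324 genes were tested, 48.4% were called and none of the 8 members was tested. Without that filter the log2 fold change was 2.46 (edgeR adjusted p = 0.00151), in a fit that called 9.04% of 20138 genes. DMSO replicate 1 stood apart from its group at 0.

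Those opposite-strand reads run in the direction of the plus-strand genes on both sides of ZKSCAN4, which were looked at after the values were seen. ZSCAN9, whose annotated end is 11.1 kb before ZKSCAN4 in the plus direction, had 56, 64, 41 and 55 counts with DMSO and 96, 77, 90 and 85 with dTAGV1. It rose by 0.80 on the log2 scale (edgeR adjusted p = 1.11e-04). NKAPL, 7.10 kb beyond ZKSCAN4, had 2, 0, 1 and 2 counts with DMSO and 20, 3, 3 and 16 with dTAGV1, too few to be tested. Which transcripts the opposite-strand reads of ZKSCAN4 came from was not tested.

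Among the pairs aligned, which took in only ZKSCAN3, ZKSCAN4, ZKSCAN8 and ZKSCAN8P1, ZKSCAN3 and ZKSCAN4 were the most alike in transcript sequence. They had 85.6% identity over 2193 bases. Their longest shared exact run was 186 bases, but only 13 bases within the last 300 of ZKSCAN4, where reads of this kit mostly fall. The last bases of ZKSCAN3 were not searched in this way. ZKSCAN8 shared runs of at most 33 bases with either. Counts of ZKSCAN3 and ZKSCAN4 are therefore open to loss of reads from the shared stretch, which are not counted to either gene.

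ZKSCAN7 (ENSG00000196345, chr3:44555193-44594173, plus strand) was at 0 in all 8 libraries on either strand. A count of 0 allows up to 3 counts, or 0.710 to 0.906 CPM per library, by counting error. The zero cannot be read as absence, since the annotated gene overlaps ZNF660 and ZNF197 on the same strand and reads that fit more than 1 gene are not counted to any. ZNF660 was at 0 as well, and ZNF197 had 20 counts in sum with DMSO and 12 with dTAGV1.

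In order of level with DMSO, ZKSCAN1 came first at 122 CPM, then ZKSCAN5 at 41.5, ZKSCAN8 at 16.1, ZKSCAN3 at 13.2, ZKSCAN2 at 9.76, ZKSCAN4 at 7.92, ZKSCAN8P1 at 2.60 and ZKSCAN7 at 0. Each transcript gives a read near its end in this kind of library, so CPM was not divided by length. The DMSO libraries of ZKSCAN8 (13.3 to 18.5 CPM) and ZKSCAN3 (10.4 to 15.6 CPM) overlapped in range, although ZKSCAN8 was the higher in each of the 4. Those of ZKSCAN2 (8.27 to 11.5 CPM) and ZKSCAN4 (6.75 to 8.80 CPM) overlapped as well. With dTAGV1, ZKSCAN8P1 at 29.3 ± 1.51 CPM lay beside ZKSCAN5 at 31.7 ± 6.52 CPM, within its spread, and ZKSCAN8 at 6.55 CPM was the lowest member above 0.

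**Figure D3:**
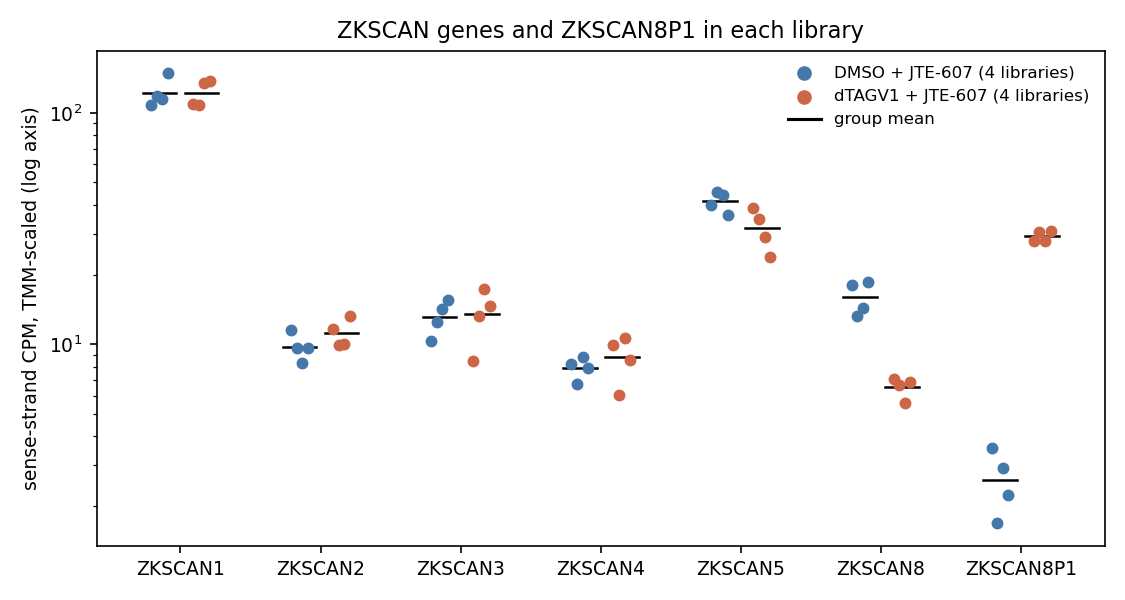
Sense level in CPM (vertical log axis) of the 7 ZKSCAN members with counts in the 4 DMSO and 4 dTAGV1 libraries, 1 point a library, with group means. The groups are apart for ZKSCAN8 and ZKSCAN8P1 and overlap for ZKSCAN1 to ZKSCAN5, and ZKSCAN7, at 0 throughout, is not drawn.

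**Figure D4:**
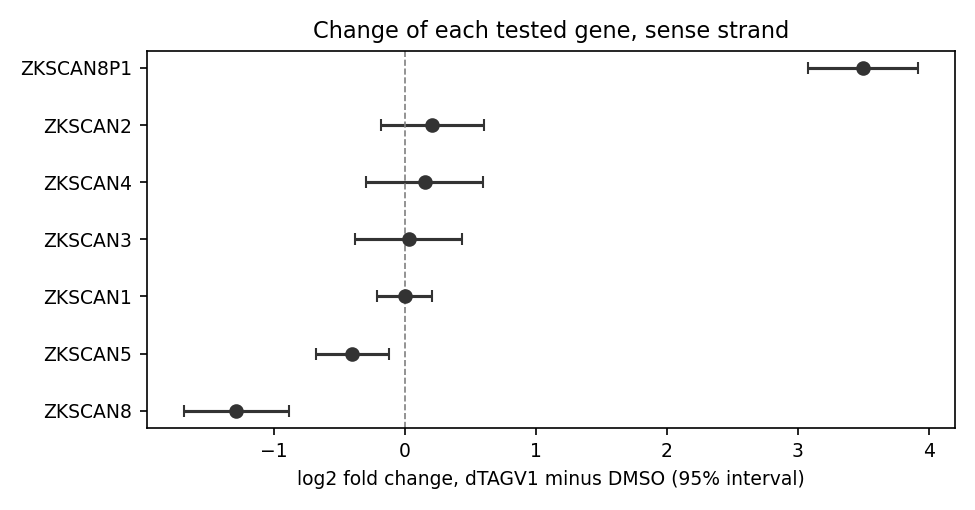
Log2 fold change (dTAGV1 minus DMSO, horizontal axis) of the 7 tested ZKSCAN members with 95% intervals from edgeR. The intervals of ZKSCAN1 to ZKSCAN4 span 0, that of ZKSCAN5 runs from -0.67 to -0.12, and ZKSCAN8 and ZKSCAN8P1 were chosen for their change.

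The promoters of several members shared sequence blocks that were noticed on reading them, so the counts that follow are descriptions. RefSeq promoter windows (GRCh38.p14, 250 bases before to 50 after a start) were at hand for 6 members, while ZKSCAN2 and ZKSCAN8P1 had no entry. The 8-letter block CTAGAGNG and the ETS-type block CCGGAAG were searched on both strands, and they do not overlap in the windows shown. The first was found in promoters of 4 of the 6 members, 8 of 39 other SCAN genes (20.5%) and 4.34% of all genes. The second was found in 4 of 6 members, 21 of 39 other SCAN genes (53.85%) and 12.2% of all genes. Both occurred in the promoters of ZKSCAN8, ZKSCAN3 and ZKSCAN1, printed here with the blocks in capitals, and ZKSCAN4 held the first block only in the window shown.
ZKSCAN8, chr6:28141831-28141860, plus strand: ctcCTAGAGAGcttCCGGAAGtgcctttgg
ZKSCAN3, chr6:28349896-28349925, plus strand: tggCTAGAGAGgcCCGGAAGtggcttctgt
ZKSCAN1, chr7:100015528-100015557, plus strand: ctcCTAGAGAGgacCCGGAAGcgcggcgcg
ZKSCAN4, chr6:28252294-28252323, minus strand: ttcCTAGAGCGcccaggaagtggccttagt
The windows ended 22, 21, 38 and 24 bases before the RefSeq start of each promoter, for ZKSCAN4 its second one, and these starts differ from the GENCODE gene starts given above. Both blocks stood in 1 promoter in 3 of 6 members (50%), in 5 of 39 other SCAN genes (12.8%) and in 0.681% of 27305 genes. The windows of ZKSCAN5 held neither block, and that of ZKSCAN7 held the second only.

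Further genes of the same class were counted in the same way. Of 15 other genes with both a SCAN and a KRAB domain, 11 were tested and 0 were called by edgeR at an adjusted p under 0.05, beside 57.9% of all genes and 54.8% of those with 4 to 45 CPM. At an unadjusted p under 0.05 the count was 1 by edgeR and 0 by DESeq2. Their log2 fold changes ran from -0.66 (ZNF446) to 0.64 (ZNF213), with a median of 0.09. The count is not firm, since 1 gene passed in each direction when dTAGV1 replicate 2 was left out and 1 was lower without dTAGV1 replicate 1.

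Of 30 SCAN genes listed apart from these, 19 were tested, 10 rose and 1 fell, 57.9% called as among all genes. The median log2 fold change was 0.46. Some that rose, ZSCAN31 among them, passed the filter on low counts through their dTAGV1 libraries. The count that rose and the median thus depend in part on the filter. When a mean of at least 20 counts was required, 9 rose and 1 fell. Over all alternatives run, between 7 (DESeq2 among them) and 10 rose, and 1 fell in each. ZSCAN31 had a mean of 2.95 CPM without and 11.7 CPM with dTAGV1. ZSCAN26 rose by 0.94 ± 0.15 (SE) on the log2 scale to 21.97 CPM (edgeR adjusted p = 1.10e-05). ZSCAN29 fell from 29.5 to 20.2 CPM, by 0.55 on the log2 scale (edgeR adjusted p = 0.00502). Of the 14 tested genes of this list that lie outside the 500 kb around ZKSCAN8, 7 rose and 1 fell, and of the 5 inside it 3 rose and 0 fell. Whether genes of this list also carry a KRAB domain was not checked, and this list and the SCAN and KRAB list were not tested against each other.

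Genes that act with KRAB zinc finger proteins were measured at higher depth, 15 of 15 tested, and 4 rose while 8 fell (median -0.24). That is 80% called, beside 57.9% of all genes and 64.1% of the 6413 genes with a mean of 25 to 650 CPM, a range that takes in this list. TRIM28, the co-repressor that many KRAB domains bind, fell by 0.46 on the log2 scale (edgeR adjusted p = 4.94e-04). DNMT1, the maintenance DNA methyltransferase, fell by 1.01, from 332 to 164 CPM (edgeR adjusted p = 1.40e-10), and CBX5, which encodes HP1 alpha, by 0.50 (edgeR adjusted p = 1.86e-05). ATF7IP, a partner of the histone methyltransferase SETDB1, rose by 0.77 and MORC3, a nuclear ATPase, by 0.97 (edgeR adjusted p = 2.41e-07 and 3.28e-09). SETDB1 itself had a log2 fold change of 0.13 (edgeR adjusted p = 0.345).

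Of 17 autophagy and lysosome genes, the group that ZKSCAN3 is known to repress in part, 13 were tested, 2 rose and 2 fell (median 0.01). That is 30.8% called, beside the same 57.9% of all genes and 64.1% of those with 25 to 650 CPM. GABARAPL2, an ATG8-type protein of the autophagosome membrane, fell from 109 to 50.7 CPM, by 1.10 on the log2 scale (edgeR adjusted p = 2.02e-10). ULK1, the kinase that starts autophagy, fell by 0.43 (edgeR adjusted p = 0.00211). GABARAPL1, of the same family as GABARAPL2, rose by 0.44 and LAMP1, a lysosomal membrane protein, by 0.36 (edgeR adjusted p = 2.83e-05 and 2.69e-04). MAP1LC3B, which encodes the autophagosome marker LC3B, had a log2 fold change of 0.01 (edgeR adjusted p = 0.923).

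**Figure D5:**
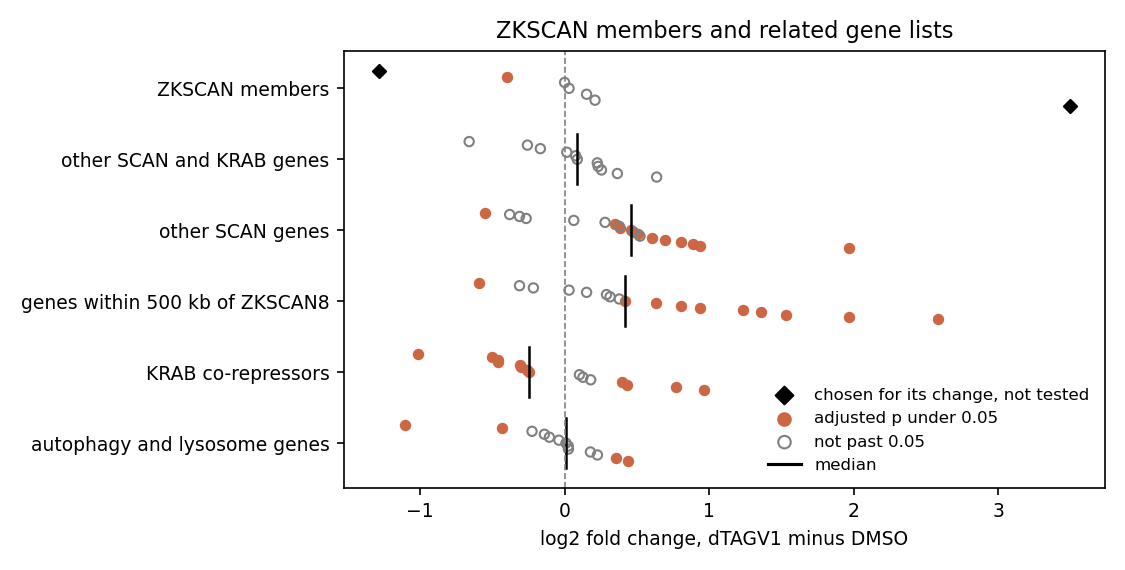
Log2 fold change (dTAGV1 minus DMSO, horizontal axis) of each tested gene in the ZKSCAN family and 5 related lists, 1 row a list, filled where the edgeR adjusted p was under 0.05, with the median of each list but the first. No other SCAN and KRAB gene is filled, 8 of the 15 KRAB co-repressors are filled to the left of 0, and the diamonds are ZKSCAN8 and ZKSCAN8P1.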

How the data were processed

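The deposited tables hold whole-number counts of reads per gene for each of the 8 libraries, made by the authors in the layout of STAR's gene counts. The build was GRCh38, and fastp, STAR and HTSeq are named, per the submitters' processing notes, with no version or annotation release. Total RNA was extracted with Trizol and the Lexogen QuantSeq forward kit was used, per the labels' protocols, so the sense-strand column was analysed and the opposite-strand column was kept apart. Rows for reads given to no gene (56.7% to 62.8%) stayed out of library sizes. Use of molecular identifiers is not given in the sources used here, so counts may not be independent molecules. The upper limit given for a count of 0 covers counting error only, while the fitted intervals include the spread between libraries.

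Libraries were grouped by their titles, 4 against 4. Both columns were fitted over all genes with edgeR 4.0.16 (robust quasi-likelihood fit, TMM scaling, default expression filter) and called at a Benjamini-Hochberg adjusted p under 0.05, in R 4.3.3. The script was tested on simulated data with 200 changed genes among 12618. Alternatives were DESeq2 1.42.0, other scaling and filters, counts irrespective of strand, a replicate block and leaving out each library. Names and coordinates came from GENCODE 29 (GRCh38), where ZKSCAN8P1 is named ZNF192P1, and promoters from RefSeq. Named genes outside the family were the called genes with the highest and lowest log2 fold changes in each list (at most 2 each way, at least 10 CPM in 1 group except near ZKSCAN8), neighbours within 10 kb, and the 3 genes most like each of the pair. ZSCAN9, NKAPL, TRIM28, SETDB1, MAP1LC3B, ZNF446 and ZNF213 were added after their values were seen. The members and lists were chosen with earlier results of these data known.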

Additional observations from a re-analysis of the deposited data

Results flagged for a closer look

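Among the groups checked, 1 value of the ZKSCAN genes stood apart from its group. On the opposite strand of ZKSCAN4, DMSO replicate 1 was at 0 CPM while the other 3 DMSO libraries held 4.37 to 4.98 CPM. The gap to the nearest library was 0.879 of the whole range, above Dixon's 95% critical value for 4 libraries. It was the 1 exceedance among 16 groups checked, and it rests on 0 counts against 2 in each of the others. With counts this small, the usual rate of about 1 in 20 by chance does not apply. The groups checked did not take in 2 sparse opposite-strand groups in which 1 library also stood apart. These were ZKSCAN3 with dTAGV1 (0, 0, 0 and 4 counts) and ZKSCAN8 with DMSO (1, 0, 0 and 0 counts).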

How the results depend on the processing

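ZKSCAN8 stayed lower (-1.38 to -1.21) and ZKSCAN8P1 higher (3.33 to 3.67) on the log2 scale under all alternatives run. ZKSCAN5 lay between -0.52 and -0.29, and it lost its call only without dTAGV1 replicate 4 (-0.29), so that leaving out 1 library gave 0 to 1 called members on the sense strand and every other alternative gave 1. ZKSCAN1 (-0.08 to 0.10) and ZKSCAN3 (-0.12 to 0.19) changed sign between alternatives without being called. ZKSCAN4 reached 0.42 with counts irrespective of strand (edgeR adjusted p = 0.0692). On the opposite strand the number of called members was 0, and 1 without the low-count filter (ZKSCAN4). Genes called over the whole sense table numbered 7302, between 6606 and 8073 under other settings and 6861 to 7232 without 1 library. On the opposite strand they numbered 1610, between 1208 and 1821, and 1566 to 1656 without 1 library. Scaling by total counts moved the median log2 fold change by -0.07, and 43.8% of called genes were then higher, against 50.8%. Of the genes within 500 kb, 5 rose when a mean of at least 20 counts was required, against 9. Among the SCAN and KRAB genes, 1 was lower with scaling by total counts, without dTAGV1 replicate 1 and without dTAGV1 replicate 2, and 1 was higher without dTAGV1 replicate 2 and irrespective of strand. The cause was not tested.

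Replicate numbers are shared by the groups in the labels, but nothing says that they mark a shared culture. Same-numbered libraries correlated in their deviations at 0.13, -0.02, 0.02 and 0.03. With a replicate block 7434 genes were called on the sense strand and 1658 on the opposite strand, ZKSCAN5 was at -0.40 and no call of a member changed.

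Depth limits the precision for ZKSCAN2, ZKSCAN3 and ZKSCAN4, whose 95% intervals still include values up to 1.52-fold, 1.36-fold and 1.52-fold higher.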
